A study of Mus musculus with 2 samples.

Results

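The 9 genes described here handle arginine and creatine: Gatm and Ckb of creatine synthesis and use, the arginases Arg1 and Arg2, the inducible nitric oxide synthase Nos2, the citrulline-recycling enzymes Ass1 and Asl, the arginine transporter Slc7a2 and the ornithine decarboxylase Odc1. They are 9 of the 27998 gene IDs that both libraries list, each symbol matched 1 ID, and they were chosen by name with yap1 to WT values of these same libraries in view, so every value below is a description and none is a test. The yap1 library came from C57BL/6 mice with yap1flox/flox and lyz2cre alleles, and the WT library from wild-type C57BL/6 mice. Both are single-cell RNA libraries of liver nonparenchymal cells, the suspension left when hepatocytes are spun down, and both sets of mice had received carbon tetrachloride (ccl4) 4 times, a hepatocyte toxin used to model fibrosis. Each library is a sample of 3 mice per the labels, and the sources used here do not give ages. Cre from the Lyz2 locus is active in macrophages, monocytes and neutrophils, so other liver cells of the yap1 mice should keep Yap1, a coactivator of the Hippo pathway. With 1 library per genotype there is no replicate, the mice within a library cannot be told apart, and no p-value is given. Every interval is a 95% interval and covers counting error only.

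Arginine stands at a branch point. Arginase splits it into urea and ornithine, nitric oxide synthase turns it into citrulline and nitric oxide, and the mitochondrial amidinotransferase encoded by Gatm moves its amidino group to glycine, the entry step of creatine synthesis, leaving ornithine. In the liver, hepatocytes run the urea cycle, whereas mouse macrophages are known for using arginine either through Nos2 after interferon and microbial signals or through Arg1 after interleukin 4.

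Gatm (ENSMUSG00000027199) lies on the minus strand of chromosome 2 at 122594467 to 122611303 in mm10, and Ckb (ENSMUSG00000001270) on the minus strand of chromosome 12 at 111669361 to 111672338. The 250 bases before the start of each are shown because both serve creatine metabolism while their yap1 to WT ratios, given below, are far apart in the same macrophages. The sequences are RefSeq's, build GRCm38.p6 (mm10), given on the gene's own strand at chr2:122611278-122611527 and chr12:111672339-111672588. Capitals mark matches, on either strand, to 3 motifs. The CCAAT box, a general promoter element, was searched as CCAAT. The TEAD core, which the DNA-binding partners of Yap1 recognise, was searched as GGAATG. The TATA box was searched as TATAAA. An E-box, CACGTG, was searched as well and had no match in either window.
Gatm: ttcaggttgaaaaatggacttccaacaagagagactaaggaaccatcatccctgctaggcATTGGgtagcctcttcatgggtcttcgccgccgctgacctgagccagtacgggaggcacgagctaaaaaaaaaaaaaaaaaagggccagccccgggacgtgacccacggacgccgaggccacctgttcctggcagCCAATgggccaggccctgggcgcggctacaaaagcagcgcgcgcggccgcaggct
Ckb: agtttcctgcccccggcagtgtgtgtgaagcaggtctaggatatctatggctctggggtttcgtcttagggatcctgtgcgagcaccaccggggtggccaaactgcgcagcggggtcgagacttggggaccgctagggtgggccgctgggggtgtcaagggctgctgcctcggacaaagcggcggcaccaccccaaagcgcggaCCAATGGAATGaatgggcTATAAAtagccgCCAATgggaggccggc
The Gatm window held a CCAAT box at bases 55 to 51 before the start and, on the opposite strand, at bases 190 to 186. The Ckb window held a TEAD core at bases 41 to 36 and a TATA box at bases 28 to 23. It held CCAAT boxes at bases 46 to 42, touching the TEAD core without sharing a base, and at bases 16 to 12. Of 32851 mouse promoter windows of the same length, 33.8% held a CCAAT box, 12.6% a TEAD core and 12.4% a TATA box, and a match is no evidence of binding. RefSeq's Gatm start lies slightly inside the GENCODE gene, and 4 of the 9 genes had a window in the table.

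Cells were classed by fixed marker lists in which none of the 9 genes appears. The yap1 library held 4731 barcodes with 34234353 UMIs (unique molecular identifiers, 1 per captured transcript), and the WT library 5269 barcodes with 30386545 UMIs. After filtering, 3983 yap1 cells (median 5297 UMIs) and 4653 WT cells (median 4073 UMIs) were kept, and 83.4% and 81.2% of them fell into 11 classes that held 50 cells or more per library. The libraries shared 5 barcodes, 3 of them among kept cells. Monocyte-derived macrophage-like cells had Trem2 in 98.8% of yap1 and 98.3% of WT cells, and Kupffer-like cells, the resident liver macrophages, had Clec4f in 95.5% of yap1 and 89.8% of WT cells. Cells with monocyte and macrophage markers in similar number form a class of intermediate cells. The bounds of the macrophage-like class are not sharp: 160 of 246 yap1 and 118 of 179 WT macrophage-like cells lay near a cut of the gate. That cut is either the least number of markers or the lead over the next list. The count does not separate the line to intermediate cells from the other cuts. Yap1 itself had 1 UMI in 246 yap1 and 2 UMIs in 179 WT macrophage-like cells and 0 in Kupffer-like and monocyte-like cells of both libraries, and the sources used here do not say which exon is floxed, so neither the deletion nor the genotype can be checked from these counts. In sinusoidal endothelial-like cells, outside the Cre lineage, Yap1 stood at 67.3 CPM (UMIs of the gene per 1000000 UMIs of the class) in yap1 and 70.8 CPM in WT.

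Gatm was higher in the yap1 library in every class of the monocyte and macrophage lineages, and close to the WT level in sinusoidal endothelial-like cells. In monocyte-derived macrophage-like cells it stood at 308 CPM (290.2 to 325.5) in yap1, from 1185 UMIs in 246 cells, and at 118 CPM (104 to 133) in WT, from 271 UMIs in 179 cells. The ratio, always yap1 over WT here, was 2.61 (2.28 to 2.99). Intermediate cells had 245 CPM in yap1 and 61.5 CPM in WT, a ratio of 3.98 (3.35 to 4.75). The intermediate class lay in unlike clusters, with 36.2% of its yap1 and 21.6% of its WT cells in cluster 3 and 58.8% and 73.3% in cluster 1, and its summed macrophage markers stood at 3069 CPM in yap1 and 2321 CPM in WT. Their part in the Gatm ratio was not tested.

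Kupffer-like cells carried more Gatm than the monocyte-derived cells in both libraries, 848 CPM (781 to 918) in yap1 and 375 CPM (342 to 410.4) in WT, a ratio of 2.26 (2.00 to 2.56). Monocyte-like cells, the Ly6c2 and Ccr2 carrying precursors from blood, carried less, 98.1 CPM in yap1 and 23.9 CPM in WT, a ratio of 4.11 (2.99 to 5.76). Patrolling monocyte-like cells had 84 UMIs (65.1 CPM) in yap1 and 18 UMIs (15.3 CPM) in WT, a ratio of 4.25 (2.53 to 7.51), or 1.62 from the 12 UMIs left with each cell thinned to 1000. Of the patrolling gate, 12.1% of yap1 and 3.25% of WT cells lay in the macrophage cluster 1, and in the patrolling cluster 8 Gatm stood at 38.9 CPM in yap1 and 11.1 CPM in WT, with an interval of the ratio from 1.98 to 6.52. The part of the macrophage cluster in the gated value was not tested. The intervals of these 5 ratios lay above 1. Neutrophil-like cells had 17 UMIs in 459 yap1 cells and 4 UMIs in 405 WT cells, a ratio of 3.90 whose interval reaches from 1.27 to 15.9.

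Sinusoidal endothelial-like cells had the highest Gatm of the 11 classes in both libraries, with 1049 CPM (984 to 1117) in yap1 and 898 CPM (850 to 948) in WT, a ratio of 1.17 (1.07 to 1.27). The order below them was the same in both libraries: Kupffer-like, monocyte-derived macrophage-like, intermediate and monocyte-like cells, each above the next beyond its counting interval. Patrolling monocyte-like cells came after monocyte-like cells, outside counting error in yap1 and within it in WT. The neutrophil-like, B cell-like, T cell-like, plasmacytoid dendritic-like and hepatocyte-like classes, at 10.7 CPM or less in yap1 and 13.5 CPM or less in WT, overlapped their neighbours in this order. Endothelial-like cells held 17.7% of the Gatm UMIs of all kept yap1 cells and 43.6% of those of WT cells. Macrophage-like and intermediate cells also made up larger shares of the yap1 library (6.18% and 8.46% of kept cells) than of the WT library (3.85% and 3.78%), which enters these UMI shares as well.

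**Figure D1:**
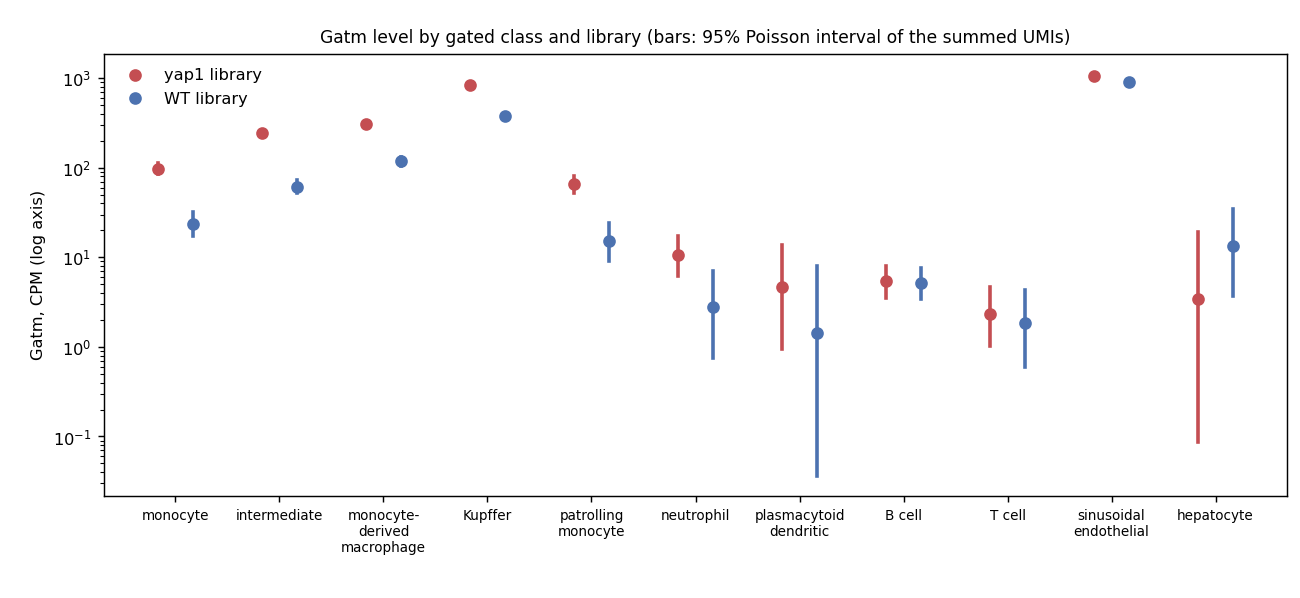
Gatm in CPM on a log axis for the 11 marker-gated classes, with the yap1 library (red) left of the WT library (blue) and bars for the 95% Poisson interval of the summed UMIs. The yap1 points stand above the WT points from monocyte-like to patrolling monocyte-like cells, whereas sinusoidal endothelial-like cells have 1049 CPM in yap1 and 898 CPM in WT.

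The difference was spread over many cells rather than carried by a few. A Gatm UMI was found in 84.6% (79.4 to 88.8%) of 246 yap1 and 47.5% (39.99 to 55.1%) of 179 WT macrophage-like cells. In intermediate cells the shares were 84.9% in yap1 and 35.8% in WT, in monocyte-like cells 64.3% and 18.6%, and in Kupffer-like cells 78.4% and 55.4%. Endothelial-like cells had nearly equal shares, 75.9% in yap1 and 76.1% in WT. At least 5 Gatm UMIs were counted in 30.1% (5 to 9 UMIs) plus 11.4% (10 or more) of yap1 macrophage-like cells, and in 8.94% plus 2.23% of WT ones. To reach 50% of the class's Gatm UMIs took the 45 richest of 246 yap1 macrophage-like cells and the 18 richest of 179 WT ones.

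**Figure D2:**
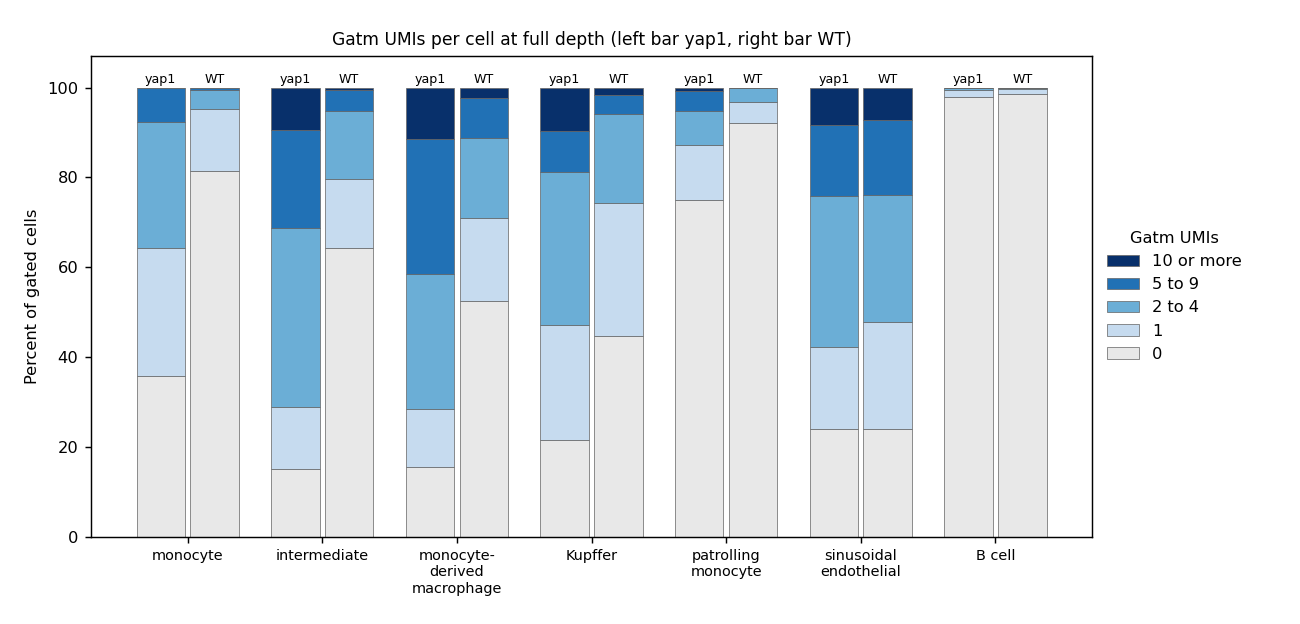
Percent of cells with 0, 1, 2 to 4, 5 to 9 and 10 or more Gatm UMIs at full depth, yap1 bar left of WT bar for each class. In macrophage-like cells 15.4% of yap1 and 52.5% of WT cells had 0 Gatm UMIs, while in endothelial-like cells 24.1% of yap1 and 23.9% of WT cells had 0.

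Depth differed, with medians of 14924 UMIs in yap1 and 12847 UMIs in WT macrophage-like cells but 2345 UMIs in yap1 and 2551 UMIs in WT endothelial-like cells, so shares were also taken with each cell thinned to 1000 UMIs. Thinned, 24.2% of yap1 and 7.87% of WT macrophage-like cells had a Gatm UMI, as did 24.9% of yap1 and 6.82% of WT intermediate cells. For Kupffer-like cells the thinned shares were 45.2% in yap1 and 30.9% in WT, and for endothelial-like cells 63.6% in yap1 and 56.1% in WT. B cell-like cells, a class not known for Gatm, serve as the background, whose source was not tested: 2.10% of 905 yap1 cells (median 4414 UMIs) and 1.41% of 1274 WT cells (median 3665 UMIs) had a Gatm UMI. That corresponds to 5.45 CPM in yap1 and 5.18 CPM in WT, and the neutrophil-like shares, 2.83% in yap1 and 0.988% in WT, lie close to it. The 7 summed endothelial markers stood at 13.8 CPM in yap1 and 19.1 CPM in WT macrophage-like cells and at 80.3 CPM in yap1 and 92.9 CPM in WT Kupffer-like cells, lower in yap1 in both. Kupffer markers in monocyte-derived macrophage-like cells stood at 317 CPM in yap1 and 381 CPM in WT. The part of RNA from other cells in the Gatm values was not tested.

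Gatm was also higher within each cluster of macrophages when cells were grouped by unsupervised clustering without the 9 genes. Cluster 1, led by Apoe, Fcgr1 and Ccr2, had 281 CPM in yap1 and 80.1 CPM in WT, a ratio of 3.51 (3.13 to 3.96). Cluster 3, led by the scar-associated macrophage genes Gpnmb and Spp1, had 240.3 CPM in yap1 and 116 CPM in WT, a ratio of 2.07 (1.82 to 2.36). The monocyte-like cluster 11, led by F13a1 and Vcan, had 80.1 CPM in yap1 and 15.8 CPM in WT, a ratio of 5.06 (3.38 to 7.85).

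The Kupffer-like gate spread over 2 clusters in unequal parts. Cluster 7, led by Marco and Clec4f, held 50.6% of the yap1 and 64.1% of the WT gate, and cluster 16, whose leading genes include the cell cycle genes Cdk1 and Ube2c, held 47.7% and 33.3%. Gatm in gated cells differed by 2.99-fold in cluster 7 and by 1.58-fold in cluster 16, both higher in yap1. Over the whole clusters the ratios were 2.92 (2.53 to 3.36) in cluster 7 and 1.43 (1.20 to 1.71) in cluster 16. Type 2 conventional dendritic-like cells (cluster 13, led by Cd209a and Flt3) had 87.3 CPM in yap1 and 73.8 CPM in WT, a ratio of 1.18 (0.936 to 1.497). The unnamed cluster 17, led by Fcgr4 and Fcrl5, had a ratio of 2.41 (1.92 to 3.04). Gatm was lower in yap1 in the unnamed cluster 21, led by Col3a1 and Col1a1. It had 4 UMIs (10.3 CPM) in 34 yap1 cells and 49 UMIs (77.0 CPM) in 58 WT cells there. Differences between these ratios were not tested. Among 9362 genes, those with the profile most like Gatm over the 22 points of 11 classes in 2 libraries were Sash1 (r = 0.966), Parvb (r = 0.948), Smad6 (r = 0.935), Tmem106a (r = 0.931) and Tfec (r = 0.928), on log2(CPM + 1). These points share library and depth, and genes and classes are not replicates.

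Lyz2, the locus of Cre, was lower in yap1 macrophage-like cells, with 6440 CPM in yap1 and 12953 CPM in WT, a ratio of 0.497, and it was lower also in B cell-like and T cell-like cells, at 0.291 and 0.422. The yap1flox/flox and lyz2cre alleles come together in these mice, so the parts of Yap1 loss, of the Cre insertion and of the single library in the Gatm values cannot be told apart.

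Ckb, the cytosolic brain-type creatine kinase that passes phosphate between ATP and creatine, did not share the Gatm difference. In macrophage-like cells Ckb stood at 332.7 CPM (315 to 351) in yap1, from 1282 UMIs, and at 329 CPM (306 to 353) in WT, from 756 UMIs, a ratio of 1.01 (0.924 to 1.11). Intermediate cells had a ratio of 1.08 (0.973 to 1.19), with 245 CPM in yap1 and 228 CPM in WT. The share of cells with a Ckb UMI was 85.8% in yap1 and 81.0% in WT macrophage-like cells. Ckb was moderately higher in yap1 Kupffer-like cells, 786 CPM (722 to 854) against 610 CPM (568 to 655) in WT, a ratio of 1.29 (1.15 to 1.44).

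Kupffer-like cells had the highest Ckb of the 11 classes in both libraries, followed in both by macrophage-like, intermediate, patrolling monocyte-like and monocyte-like cells. Type 2 dendritic-like cells of cluster 13 reached 712 CPM in yap1 and 677 CPM in WT. Endothelial-like cells, the richest in Gatm, had few Ckb UMIs: 22 in 291 yap1 cells (23.9 CPM) and 54 in 398 WT cells (37.5 CPM), a ratio of 0.637 (0.369 to 1.06). Neutrophil-like cells had 22 Ckb UMIs in yap1, of which 11 were in 1 cell, and 8 in WT, and their ratio of 2.52 (1.08 to 6.55) was 0.908 with cells weighted equally. For Ckb, 7.95% of the 50-base words at its transcripts' 3′ ends also occur in other genes, for Gatm 0%. Gatm and Ckb were found in the same cell in 180 of 246 yap1 and 79 of 179 WT macrophage-like cells, where the product of their shares gives 178 in yap1 and 68.9 in WT.

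**Figure D3:**
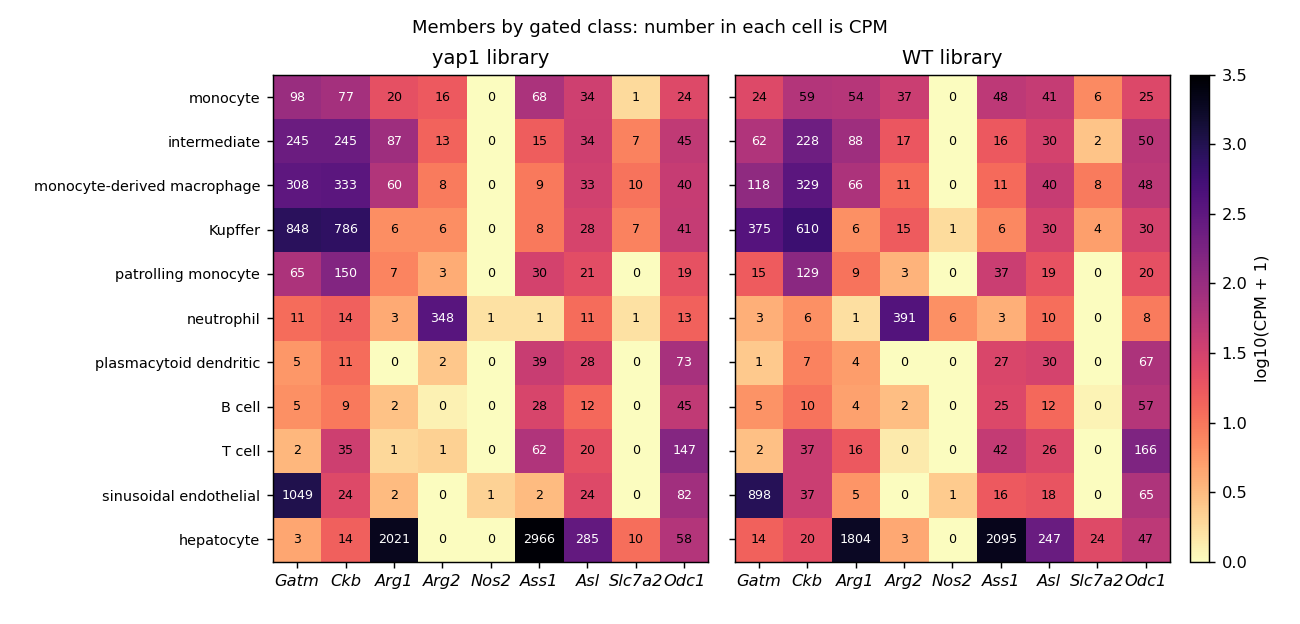
CPM of the 9 genes in the 11 classes, yap1 library on the left and WT on the right, with shading by log10(CPM + 1) and the CPM printed in each field. Each gene is to be read down its own column: Gatm peaks in endothelial-like and Kupffer-like cells, Arg1, Ass1 and Asl in hepatocyte-like cells, Arg2 in neutrophil-like cells and Odc1 in T cell-like cells.

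Arg1 (chromosome 10, 24915221 to 24927484), the cytosolic arginase of the urea cycle, was highest in hepatocyte-like cells among the 11 classes, followed by intermediate and macrophage-like cells. Hepatocyte-like cells had 2021 CPM (1861 to 2191) in 122 yap1 cells and 1804 CPM (1654 to 1964) in 141 WT cells, a ratio of 1.12 (0.995 to 1.26). Intermediate cells had 86.6 CPM in yap1 (471 UMIs) and 87.9 CPM in WT (210 UMIs), a ratio of 0.986 (0.836 to 1.17), and macrophage-like cells 60.5 CPM in yap1 (233 UMIs) and 65.7 CPM in WT (151 UMIs), a ratio of 0.921 (0.747 to 1.14). The macrophage-like ratio was 0.506 with cells weighted equally, 0.505 with cells thinned and 0.463 with clusters in place of gates, so its size depends on how cells are weighted and grouped. Cells with mixed markers, which belong to no class, held 9.99% of the Arg1 UMIs of kept yap1 cells and 27.8% of those of WT cells. Kupffer-like cells had 4 Arg1 UMIs in 176 yap1 cells and 7 in 354 WT cells.

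Hepatocyte RNA is a possible source of Arg1 UMIs in other cells, and its level was measured beside them. At the Arg1 to Alb ratio of hepatocyte-like cells, the Alb UMIs seen would come with 5.08 Arg1 UMIs in yap1 and 3.48 in WT macrophage-like cells, against 233 and 151 counted. In B cell-like cells the same reckoning gives 10.9 in yap1 and 10.5 in WT, against 8 and 20 counted.

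The Arg1 of the monocyte and macrophage clusters sat in few cells. In those named monocyte-derived macrophage-like, monocyte-like and patrolling monocyte-like, 50 of the yap1 cells (4.72%) had at least 5 Arg1 UMIs and held 80.9% of these clusters' Arg1 UMIs, and 40 of the WT cells (4.50%) held 87.4%. No Arg1 UMI was found in 83.8% of the yap1 and 85.1% of the WT cells of these clusters. The single richest intermediate cell had 66 UMIs in yap1 and 35 in WT. Of the 50 yap1 cells, 34 lay in the Gpnmb and Spp1 cluster 3 and 11 in cluster 8, led by Ace and Eno3, and of the 40 WT cells 17 and 14 lay there. By cluster, Arg1 stood at 16.9 CPM in yap1 and 49.9 CPM in WT in cluster 1, a ratio of 0.338 (0.266 to 0.427). In cluster 3 it stood at 98.9 CPM in yap1 and 216 CPM in WT, a ratio of 0.457 (0.404 to 0.518). In cluster 8 it stood at 256 CPM in yap1 and 240.9 CPM in WT, a ratio of 1.06 (0.917 to 1.23). In WT, 9 cells held 162 of the 207 Arg1 UMIs of cluster 1, and 17 cells held 475 of the 534 of cluster 3. In yap1, 5 cells held 52 of 112 in cluster 1, and 34 cells held 377 of 490 in cluster 3. The intervals of these cluster ratios treat UMIs as independent and are too narrow. Cluster 8 bears the patrolling monocyte name, yet the patrolling gate held only 9 Arg1 UMIs (6.98 CPM) in yap1 and 11 (9.37 CPM) in WT, against 382 in yap1 and 347 in WT in the whole cluster, so most Arg1 of the cluster was in cells outside that gate.

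Monocyte-like cells had 46 Arg1 UMIs in yap1, 40 of them in 1 cell, and 106 in WT, 60 of them in 1 cell, a ratio of 0.374 (0.259 to 0.534). T cell-like cells had 3 Arg1 UMIs in yap1 and 44 in WT, 40 of them in 1 cell. The levels in both classes rest largely on single cells, and their intervals, which treat UMIs as independent, are too narrow. The monocyte-like ratio lay between 0.0975 and 0.559 under the alternatives tried.

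Cells rich in Arg1 also carried more Slc7a2, which encodes a cationic amino acid transporter that brings arginine into macrophages. Slc7a2 stood at 41.2 CPM (29.4 to 56.1) in the 50 yap1 cells with at least 5 Arg1 UMIs and at 2.71 CPM in the 887 yap1 cells of these clusters without Arg1, and was found in 20% (10.03 to 33.7%) and 2.93% of them. In WT it stood at 111 CPM in 40 such cells and at 1.96 CPM in 756 cells without Arg1, and was found in 22.5% (10.8 to 38.5%) and 1.72% of them. The bins differ in depth, with medians of 18368 and 13877 UMIs in yap1 and 13236 and 11200 UMIs in WT, and the summed hepatocyte markers were higher in the Arg1-rich bin, 350 against 283 CPM in yap1 and 734 against 316 CPM in WT. Slc7a2 in hepatocyte-like cells was 10.3 CPM (2.13 to 30.1) in yap1, from 3 UMIs, and 23.6 CPM (9.51 to 48.7) in WT, from 7 UMIs. Most Arg1-rich cells lay in clusters 3 and 8. Slc7a2 stood there at 9.69 and 15.4 CPM in yap1 and at 23.1 and 15.3 CPM in WT. In cluster 1 it stood at 2.71 CPM in yap1 and 2.41 CPM in WT, and in cluster 11 at 0 in both. The parts of hepatocyte RNA and of the clusters in the Slc7a2 of Arg1-rich cells were not tested.

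Odc1 followed Arg1 in yap1, at 70.1 CPM (54.4 to 88.8) in the Arg1-rich and 31.3 CPM (28.2 to 34.6) in the Arg1-free cells. In WT it stood at 54.5 CPM (35.9 to 79.3) and 33.2 CPM (29.4 to 37.4), with overlapping intervals. Gatm hardly varied with Arg1 in yap1 cells, at 227 CPM in Arg1-rich and 214 CPM in Arg1-free cells, and stood at 143 CPM (112 to 181) and 63.0 CPM (57.7 to 68.7) in WT. Ass1 was not higher with Arg1: 4.12 CPM in Arg1-rich and 22.7 CPM in Arg1-free yap1 cells, and 24.2 CPM and 23.4 CPM in WT cells. The matrix genes Fn1 and Spp1, named after their values were seen, were higher in the Arg1-rich cells, with Fn1 at 2063 CPM against 353 CPM in yap1 and 3020 CPM against 322 CPM in WT. The bins also differ in their clusters. Fn1 is among the leading genes of clusters 8 and 11 and Spp1 among those of cluster 3. Ass1 stood at 6.86 CPM in yap1 and 7.29 CPM in WT in cluster 3, and at 44.1 and 33.4 CPM in cluster 11. The part of the clusters in these differences was not tested. The bins were cut from Arg1 counts of the same cells, so these values describe cells and were not tested.

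**Figure D4:**
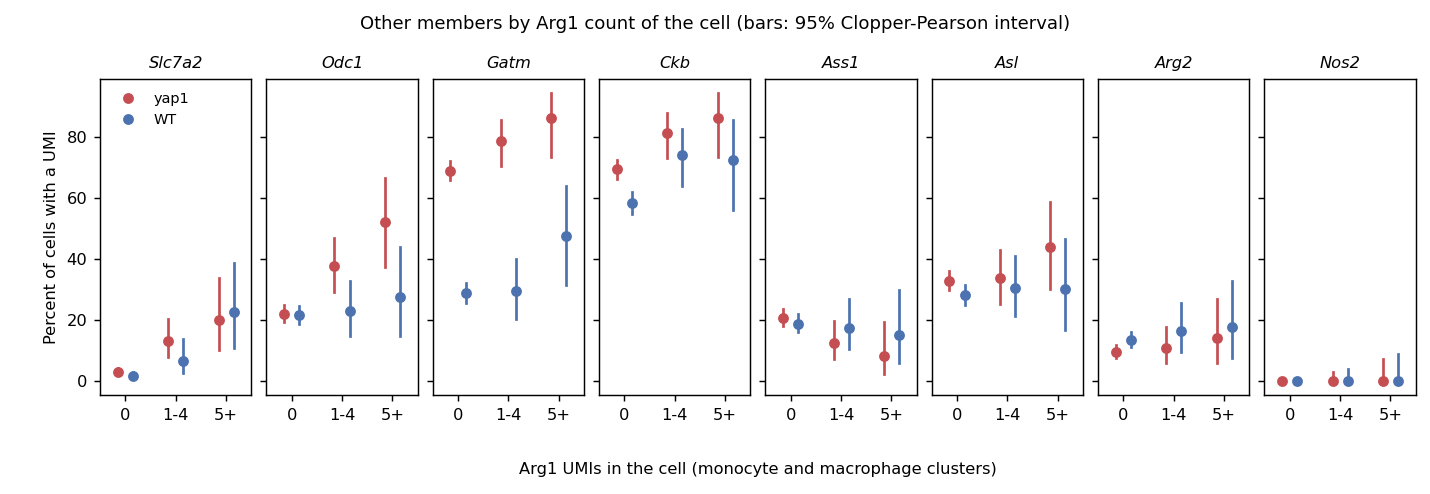
Percent of cells with a UMI of 8 other members, for cells with 0, 1 to 4 and 5 or more Arg1 UMIs in the monocyte and macrophage clusters, yap1 in red left of WT in blue, with 95% Clopper-Pearson intervals. Slc7a2 is found in 20% of yap1 and 22.5% of WT cells with 5 or more Arg1 UMIs, and Nos2 in 0% of every group.

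Over whole classes Slc7a2 was scarce. Macrophage-like cells had 37 UMIs in 246 yap1 cells and 19 in 179 WT cells, a ratio of 1.16 (0.651 to 2.14), and intermediate cells 39 UMIs in 337 yap1 cells and 4 in 176 WT cells, a ratio of 4.29 (1.55 to 16.5). Clustering put more WT Slc7a2 UMIs among macrophages, and the macrophage-like ratio was then 0.562. Of 143 Slc7a2 UMIs in all kept WT cells, 65 were in cells with mixed markers, which belong to no class, against 7 of 104 in yap1. Endothelial-like, T cell-like, plasmacytoid dendritic-like and patrolling monocyte-like cells had 0 Slc7a2 UMIs in both libraries. Cluster 8, which bears the patrolling monocyte name, held 23 in yap1 and 22 in WT, all in cells outside that gate. The unnamed cluster 21, led by Col3a1 and Col1a1, had 3 UMIs (7.71 CPM) in yap1 and 29 (45.6 CPM) in WT. Slc7a2 (chromosome 8, 40862396 to 40922308) overlaps Gm26584 on the opposite strand, and the sources used here do not say whether counting used strand.

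Nos2 (chromosome 11, 78920787 to 78960254), the inducible nitric oxide synthase, was close to absent, with 2 UMIs in all 3983 kept yap1 cells and 11 in all 4653 WT cells. Macrophage-like, intermediate, monocyte-like and patrolling monocyte-like cells had 0 Nos2 UMIs in both libraries, which in macrophage-like cells allows up to 0.778 CPM in yap1 and 1.30 CPM in WT. The 50 yap1 and 40 WT Arg1-rich cells had 0 as well. Neutrophil-like cells had 1 UMI in yap1 and 8 UMIs, from 7 of 405 cells, in WT, and each of these 7 cells had an Arg2 UMI too. A Nos2 UMI was thus found in 0.218% (0.00552 to 1.21%) of yap1 and 1.73% (0.698 to 3.53%) of WT neutrophil-like cells, and the intervals overlap. The profile of Nos2 over the classes rests on 13 UMIs, and the genes most like it were Hdc (r = 0.816), Gnai3, Upp1, Csf1 and Snai1, over the same 22 points. By cluster, Nos2 had 1 UMI in yap1 and 6 in WT in cluster 6, led by Retnlg. Cluster 22, led by Camp, had 0 in yap1 and 2 in WT. Cluster 9, whose leading genes include Hcar2 and Csf1, had 0 in both libraries. Among the genes most like Arg1 were Ang (r = 0.912), Lsr, Iah1 and Dbi.

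Arg2 (chromosome 12, 79130777 to 79156301), the mitochondrial arginase, was the arginase of neutrophils. Neutrophil-like cells held 73.4% of the Arg2 UMIs of kept yap1 cells and 68.5% of those of WT cells. They had 348 CPM (319.9 to 379) in yap1, from 551 UMIs, and 391 CPM (359 to 424) in WT, from 567 UMIs, a ratio of 0.891 (0.791 to 1.004). An Arg2 UMI was found in 51.9% (47.2 to 56.5%) of 459 yap1 and 60.5% (55.5 to 65.3%) of 405 WT neutrophil-like cells, and after thinning in 27.6% and 33.1%. Arg1, by contrast, had 5 UMIs in yap1 and 1 UMI in WT neutrophil-like cells.

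Monocyte-like cells had 36 Arg2 UMIs (15.8 CPM) in 143 yap1 cells and 73 (37.0 CPM) in 167 WT cells, a ratio of 0.426 (0.277 to 0.643), and at most 4 in a yap1 and 5 in a WT cell. The summed neutrophil markers in these cells stood at 842 CPM in yap1 and 536 CPM in WT, and their part in the Arg2 values was not tested. Kupffer-like cells had 4 Arg2 UMIs in yap1 and 19 in WT, a ratio of 0.370 (0.0916 to 1.11), and endothelial-like cells 0 in both. In macrophage-like cells the ratio was 0.734 (0.424 to 1.28). Arg2 overlaps Vti1b and Gm48780 on the opposite strand.

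Ass1 and Asl, which turn citrulline through argininosuccinate back into arginine, were highest in hepatocyte-like cells, where the urea cycle runs. Ass1 (chromosome 2, 31470207 to 31520672) had 2966 CPM (2771 to 3171) in yap1 and 2095 CPM (1933 to 2266) in WT hepatocyte-like cells, a ratio of 1.42 (1.28 to 1.57), or 1.10 with cells weighted equally. These cells were shallow, with medians of 1527 UMIs in yap1 and 1425 UMIs in WT. Among the other 10 classes, monocyte-like and T cell-like cells had the highest Ass1. Clusters outside these classes reached higher levels, such as migratory dendritic-like cells (cluster 23) with 124 CPM in 21 yap1 and 173 CPM in 28 WT cells. Monocyte-like cells had 67.9 CPM in yap1 and 48.2 CPM in WT, a ratio of 1.41 (1.08 to 1.84), and T cell-like cells 62.4 CPM in yap1 and 42.3 CPM in WT, a ratio of 1.48 (1.17 to 1.87).

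In macrophage-like cells Ass1 was low, at 8.56 CPM in yap1 and 11.3 CPM in WT, and in endothelial-like cells it had 2 UMIs in yap1 and 23 in WT, a ratio of 0.136 (0.0155 to 0.550). As 31.9% of the 50-base words at the 3′ ends of Ass1 transcripts occur in other genes, its counts are uncertain. Asl (chromosome 5, 130011258 to 130029247) had 285 CPM (227 to 354) in yap1 and 247 CPM (193 to 310.1) in WT hepatocyte-like cells. In the other classes it lay between 10.7 and 34.4 CPM in yap1 and between 10.3 and 41.1 CPM in WT. Its ratios lay between 0.768 in T cell-like and 1.32 in endothelial-like cells, and each interval included 1.

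Odc1 (chromosome 12, 17544794 to 17551505), which turns ornithine into putrescine and is the entry step of polyamine synthesis, was highest in T cell-like cells among the 11 classes in both libraries. In T cell-like cells Odc1 stood at 147 CPM (134 to 160) in yap1 and 166 CPM (151 to 182) in WT, a ratio of 0.884 (0.777 to 1.01). The small unnamed cluster 24, led by Ppbp and Gp1bb, lay above them with 10 Odc1 UMIs in 3 yap1 cells and 10 in 13 WT cells. Clusters 19 and 21 stood at 167 and 170 CPM in WT, but at 110 and 92.5 CPM in yap1. Endothelial-like cells had 82.5 CPM in yap1 and 64.5 CPM in WT, and B cell-like cells 45.0 CPM in yap1 and 56.5 CPM in WT, a ratio of 0.795 (0.661 to 0.955). Macrophage-like cells had 39.96 CPM in yap1 and 47.8 CPM in WT, a ratio of 0.835 (0.650 to 1.08). As 26.6% of the 50-base words at its 3′ ends occur in other genes, Odc1 counts are uncertain as well.

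**Figure D5:**
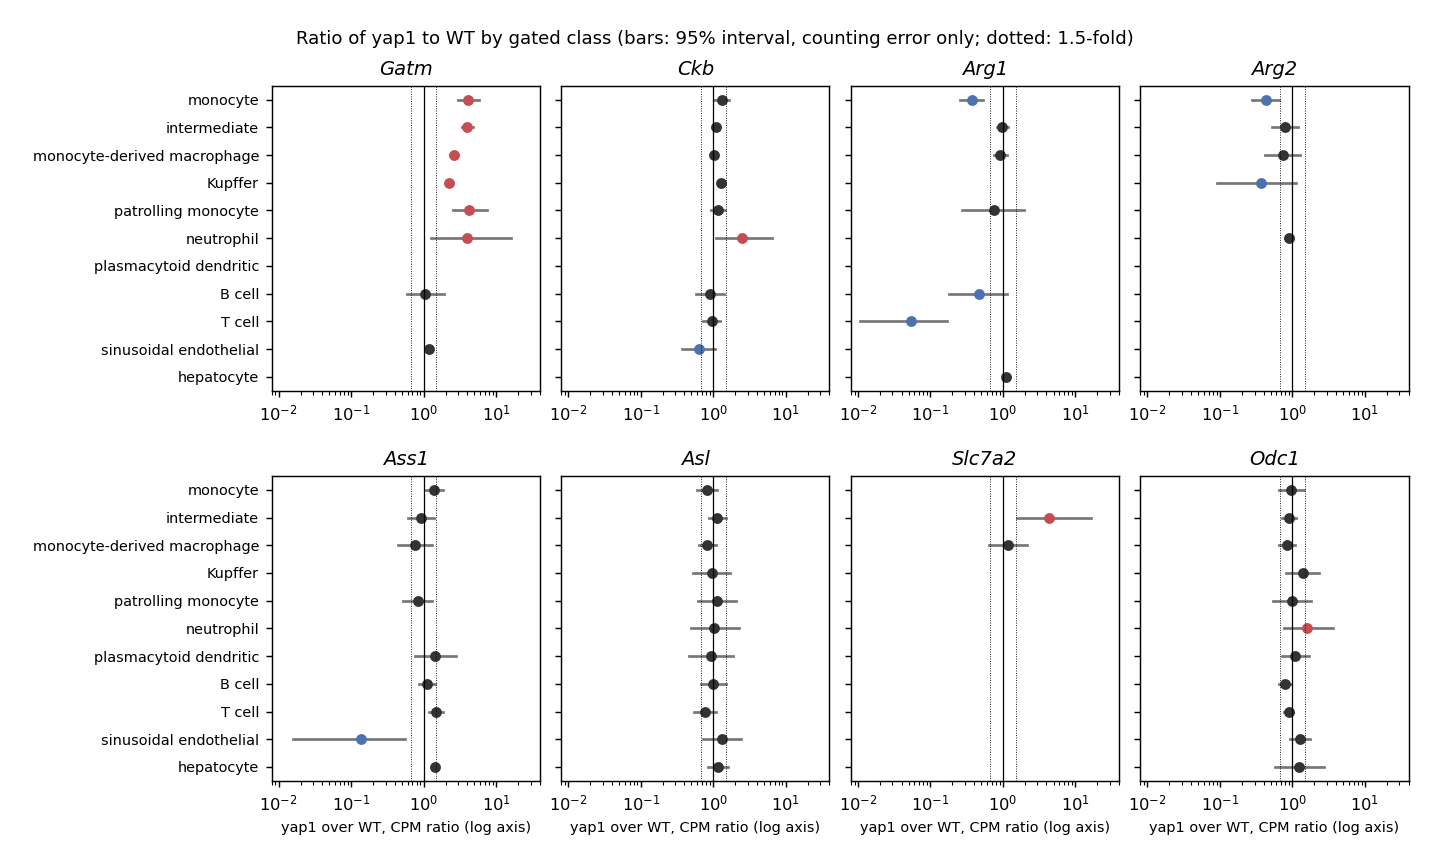
Ratio of yap1 to WT CPM on a log axis for 8 of the 9 genes in each class with at least 20 UMIs over both libraries, with 95% intervals for counting error, a solid line at equality and dotted lines at 1.5-fold either way. Gatm lies right of the 1.5-fold line in 6 classes, whereas Ckb and Arg1 lie close to equality in the macrophage-like and intermediate gates. In the macrophage clusters 1 and 3, not drawn here, Arg1 was lower in yap1, with ratios of 0.338 and 0.457 that rest largely on few cells. Nos2 never reached 20 UMIs.

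Counted over the 9 genes, few ratios lay beyond 1.5-fold. Of 8 members with at least 20 UMIs in macrophage-like cells, 1 (Gatm) was higher and 0 lower, beside 8.19% of all measured genes higher and 5.7% lower. In intermediate cells 2 of 8 were higher (Gatm and Slc7a2) and 0 lower, beside 9.31% and 5.27%. In Kupffer-like cells 1 of 5 was higher (Gatm) and 1 lower (Arg2), beside 10.1% and 12.2%. In monocyte-like cells 1 of 7 was higher (Gatm) and 2 lower (Arg1 and Arg2), beside 7.59% and 7.24%.

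In patrolling monocyte-like cells 1 of 6 was higher (Gatm) and 0 lower, beside 7.08% and 9.51%. In neutrophil-like cells 3 of 5 were higher (Gatm, Ckb and Odc1) and 0 lower, beside 22% and 5.85%. There the median log2 ratio of all genes was 0.20, and scaling by the median of ratios moved values by 0.12 on the log2 scale and brought Odc1 to 1.48. In endothelial-like cells 0 of 5 were higher and 2 lower (Ckb and Ass1), beside 6.31% and 9.61%. B cell-like cells had 0 of 6 higher and 1 lower (Arg1), beside 5.17% and 6.83%, and T cell-like cells 0 of 5 higher and 1 lower (Arg1), beside 6.26% and 6.01%. Hepatocyte-like cells, with 4 measured, and plasmacytoid dendritic-like cells, with 3, had 0 in either direction, beside 18.7% and 11.6% for hepatocyte-like and 9.21% and 9.96% for plasmacytoid dendritic-like cells.

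The wider pathway was taken as 51 genes in 6 lists that include the 9. In macrophage-like cells 6 of 32 measured pathway genes (18.8%) were higher and 0 lower, beside 8.19% and 5.7% of all genes. The median log2 ratio there was -0.05 against 0.02 over all genes. Of the 4 measured creatine genes 2 were beyond 1.5-fold higher there: besides Gatm this was Slc6a8, the creatine transporter, with 85 UMIs in yap1 and 24 in WT and a ratio of 2.11 (1.33 to 3.48). In intermediate cells, too, 2 of 4 creatine genes were beyond 1.5-fold higher, beside 9.31% of all genes. With 4 genes measured, no result about the creatine list is drawn. Of the polyamine list, Dhps, which makes deoxyhypusine from spermidine on a translation factor, had a ratio of 1.69 (1.18 to 2.46) and the spermidine synthase Srm a ratio of 1.67 (1.04 to 2.75) in macrophage-like cells.

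Kupffer-like cells had 3 of 25 pathway genes higher and 3 lower, beside 10.1% and 12.2% of all genes, with a median of -0.03. Besides Gatm the higher ones were Aldh18a1, of proline and ornithine synthesis, at 1.66 (0.998 to 2.75), and Gch1, the entry enzyme of the nitric oxide synthase cofactor tetrahydrobiopterin, at 1.55 (0.905 to 2.62). Monocyte-like cells had 1 of 29 higher and 4 lower, beside 7.59% and 7.24% of all genes. Among the lower was Amd1, which makes the propylamine donor for spermidine, at 0.582 (0.350 to 0.954). Neutrophil-like cells had 4 of 16 higher and 0 lower, beside 22% and 5.85% of all genes. Among the higher was Pts, also of tetrahydrobiopterin synthesis, at 1.79 (1.23 to 2.65).

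Endothelial-like cells had 4 of 29 pathway genes higher and 6 lower, beside 6.31% and 9.61% of all genes. The basic amino acid exporter Slc7a7 had a ratio of 1.56 (1.13 to 2.15), with 87.9 CPM in yap1 and 56.2 CPM in WT. Its heavy chain partner Slc3a2 had a ratio of 0.648 (0.541 to 0.774), with 192 CPM in yap1 and 296 CPM in WT. Sat1, which acetylates spermidine and spermine for export, had a ratio of 0.581 (0.464 to 0.722), and Dohh, which completes hypusine, a ratio of 0.461 (0.257 to 0.791). The shares of pathway genes beyond 1.5-fold in these classes lie beside the shares of all genes given above, and nothing particular to the pathway is drawn from them.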

How the data were processed

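The authors deposited raw whole-number counts per gene and barcode, read here as UMIs and not normalized. The submitters' processing notes name mm10, Bowtie 0.12.2 and Seurat without a role. The sources used here do not give the counting program, annotation, strand setting or droplet chemistry. GENCODE M21 holds 27722 of the 27998 gene IDs and gave coordinates and words of 50 bases in the last 500 bases of each transcript.

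Barcodes with at least 500 UMIs, 200 genes and at most 20% mitochondrial UMIs passed: 4149 of 4731 in yap1 and 4847 of 5269 in WT. Scrublet's automatic threshold marked 4 and 2 of these, under 0.5%, so it was taken not to have worked and the 4% with the highest scores were left out, 166 in yap1 and 194 in WT. A cell joined the class whose marker list it had in the largest share, given at least 3 markers and a lead of 25 percentage points over the next list. Cells with a smaller lead between the monocyte and macrophage lists were called intermediate. This rule was set from marker counts, without the 9 genes, and 110 of 112 markers were found. Leiden clusters (resolution 1, 2000 variable genes, 30 components, 15 neighbours), named from the same markers, served as an alternative.

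CPM come from UMIs summed over each class in a library, with exact Poisson intervals. Ratios carry exact conditional binomial intervals and shares Clopper-Pearson intervals, at 95%, for counting error only. A count of 0 allows up to 3 counts. Genes with 20 UMIs over both libraries count as measured, and 1.5-fold is the size past which a ratio is counted. On simulated counts for macrophage-like cells (9214 genes), 96.2% of intervals covered the true ratio, 92.5% of 200 changed and 8.12% of unchanged genes lay beyond 1.5-fold. Uneven spread over cells was not simulated.

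All 9 genes are named whatever their values. Of the pathway lists, up to 3 genes per direction with at least 50 UMIs and 1.5-fold are named in 5 classes, and for Gatm, Arg1 and Nos2 the 5 genes with the most similar profile among those with 200 UMIs. One of these is not reported here. Members and lists were chosen with earlier results of these data known. Alternatives changed the doublet step, the cell filter, the gate, the classes, the scaling, the weight of cells, the depth and the minimum count, and left out the 5 cells with most UMIs. The 2 Kupffer clusters were taken apart after seeing the data. The tools were scanpy 1.11.5, leidenalg 0.10.2, scipy 1.17.1, numpy 2.4.6, pandas 2.3.3 and matplotlib 3.10.9 under Python 3.11.15.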

Additional observations from a re-analysis of the deposited data

Results flagged for a closer look

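Ckb lay on opposite sides of equality in a pair of classes: its yap1 to WT ratio was 2.52 in neutrophil-like cells, from 22 UMIs in yap1 and 8 in WT, and 0.637 in sinusoidal endothelial-like cells, from 22 UMIs in yap1 and 54 in WT. With 1 library per genotype the difference was not tested. The neutrophil-like value was 0.908 with cells weighted equally.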

How the results depend on the processing

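The Gatm ratio, yap1 over WT, stayed above 1.5 under every alternative tried in 5 classes: 2.59 to 3.13 in macrophage-like, 3.96 to 4.81 in intermediate, 1.95 to 2.29 in Kupffer-like (single clusters aside), 4.11 to 6.23 in monocyte-like and 1.62 to 6.74 in patrolling monocyte-like cells. Gatm values outside the counting interval of the ratio reported for these classes were, in macrophage-like cells, 3.03 with cells weighted equally and 3.13 thinned, in Kupffer-like cells 1.95 thinned, 2.99 in cluster 7 and 1.58 in cluster 16, in monocyte-like cells 6.23 thinned, in patrolling monocyte-like cells 1.62 thinned and in intermediate cells 4.81 without the 5 richest cells. Ckb in neutrophil-like cells turned round to 0.908 with cells weighted equally, and 11 of its 22 yap1 UMIs were in 1 cell. Odc1 there was 1.48 with the looser gate or the median of ratios and 1.25 with cells weighted equally. Of 131 measured pairs of pathway gene and class in the macrophage-like, Kupffer-like, monocyte-like, neutrophil-like and endothelial-like classes, 18 were higher and 13 lower. Over all measured genes, the shares beyond 1.5-fold in these classes ran from 6.31% to 22% higher and from 5.7% to 12.2% lower. Higher pairs numbered 9 with clusters, 6 thinned and 8 with 100 UMIs required, and lower pairs 4 with 100 UMIs. Fewer pairs were measured when thinned (60) or at 100 UMIs (83), and the causes of the lower counts were not tested. Shares over all genes were not taken under these alternatives, and nothing particular to the pathway is drawn from these counts. Of the other ratios, 16 of 34 moved when thinned, 10 of 51 with clusters, 9 of 59 with cells weighted equally and 5 of 55 without the 5 richest cells, and at most 1 under each remaining alternative. Alternatives with under 10 UMIs gave no value. No paired analysis was possible because each genotype has 1 library. Counts were small for Nos2, Slc7a2 and Arg2 outside neutrophils, and the part of depth in this was not tested.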
